A study of Mus musculus with 10 samples.

Results

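The 9 channel genes described here are the calcium channel pore genes Cacna1a, Cacna1c, Cacna1d, Cacna1e, Cacna1g and Cacna1h, and the sodium channel pore genes Scn3a, Scn8a and Scn9a. They were listed by name, not by their values, and matched to the Ensembl identifiers of the count tables. All 9 were found among 56748 identifiers, and all 9 passed the filter on low counts that left 15942 genes for testing. The libraries come from beta cells, the insulin-secreting cells of the pancreatic islet, which were sorted by flow cytometry (FACS) after trypsin dispersal of islets. The islet donors were 6 to 8 week old NOD males, from an inbred line prone to autoimmune diabetes, and all libraries share this genotype, tissue and sort. Libraries untreated 1 to untreated 5 had no agent added (n = 5), and libraries LPS 6 to LPS 10 came from islets cultured for 48 hours with lipopolysaccharide at 50 ng/ml (n = 5). LPS, a part of the outer wall of Gram-negative bacteria, acts on Toll-like receptor 4. It met whole islets, so beta cells were exposed beside the other islet cells. The labels call the samples independent but name neither the animals behind each library nor the culture time of the untreated islets.

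Voltage-gated channels open when the membrane depolarises. In beta cells, glucose metabolism closes potassium channels, the membrane depolarises, and calcium entering through voltage-gated calcium channels triggers the release of insulin. Each pore gene encodes a single long protein made of repeats, and each repeat dips a pore loop into the membrane. The residues at the tips of these loops form the selectivity filter. Cacna1c and Cacna1d encode the L-type pores Cav1.2 and Cav1.3, which open at high voltage and carry much of the calcium current of rodent beta cells. Cacna1a encodes the P/Q-type pore Cav2.1 and Cacna1e the R-type pore Cav2.3, which are also high-voltage channels and are known from nerve terminals. Cacna1g and Cacna1h encode the T-type pores Cav3.1 and Cav3.2, which open near the resting potential. Scn3a, Scn8a and Scn9a encode the sodium channel pores Nav1.3, Nav1.6 and Nav1.7, which carry the fast upstroke of action potentials. Nav1.7 and Nav1.3 are both known from mouse islets.

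The coding sequence around the selectivity filter of the third repeat shows how these families differ. It is given for the gene with the highest level per length, for the L-type pair, for a T-type gene and for the 2 sodium channel genes that share the most sequence. Each stretch has 51 bases, read 5′ to 3′ on the coding strand of a transcript in GENCODE M21 (build GRCm38), and the capitals mark the codon of the filter residue.
Cacna1a: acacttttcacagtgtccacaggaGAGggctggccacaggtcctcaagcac
Cacna1c: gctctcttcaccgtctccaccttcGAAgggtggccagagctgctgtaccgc
Cacna1d: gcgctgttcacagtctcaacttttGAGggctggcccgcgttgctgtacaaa
Cacna1g: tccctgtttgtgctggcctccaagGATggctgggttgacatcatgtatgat
Scn3a: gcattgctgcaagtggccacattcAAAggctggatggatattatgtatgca
Scn9a: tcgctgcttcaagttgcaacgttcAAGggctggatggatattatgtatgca
The marked codon is GAG or GAA, for glutamate, in the high-voltage calcium channel genes, Cacna1e included. It is GAT, for aspartate, in Cacna1g and Cacna1h, and AAA or AAG, for lysine, in Scn3a, Scn8a and Scn9a. Between Cacna1c and Cacna1d 14 of the 51 bases differ, between Cacna1g and Cacna1h 8, and between any pair of the 3 sodium channel genes 8. These similarities bear on which gene a read is assigned to. Of all stretches of 50 bases in the transcripts of Scn3a, 3.25% also occur in Scn9a, 4.23% in Scn2a and 2.30% in Scn1a, so counts among these genes are partly uncertain. The 6 calcium channel genes share no such stretch with each other.

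The 9 genes lie on 8 chromosomes of the mouse genome, with Scn3a and Scn9a both on chromosome 2. On that chromosome the sodium channel genes stand in the order Scn3a, Scn2a, Scn1a, Scn9a, Scn7a. Some of the 9 overlap genes on the opposite strand, Cacna1c with Dcp1b and Cacna1d with Dcp1a, which code for mRNA decapping proteins and had mean levels of 23.4 and 40.7 CPM (counts in every 1000000, scaled by TMM). These overlaps are of whole gene spans, and whether exons overlap was not checked. Whether counting used strand is not given in the sources used here. Whether reads of such partners entered the counts of a channel gene is therefore not known.

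Assigned counts ran from 18465188 to 27379892 per library and did not differ between the groups beyond their spread (two-sided exact permutation test, p = 0.246), although they did without LPS 7 (exact p = 0.0317). The sorted cells carried beta cell RNA: the 11 beta cell markers, led by Ins2 and Ins1, summed to between 102096 and 137261 CPM. RNA of other endocrine cells was also present. Alpha cell markers, led by Gcg and Slc7a2, summed to 5388 to 14676 CPM in untreated and 4399.6 to 9293 in LPS libraries, and delta cell markers, led by Sst and Rbp4, to 6141 to 8288 and 5014 to 9143. Markers of pancreatic polypeptide cells, led by Ppy and Pyy, ran from 1603 to 3019.5 and from 969.9 to 2184 CPM. By edgeR's quasi-likelihood test with adjustment over all genes, 3 of 11 tested beta, 1 of 8 tested alpha, 0 of 5 tested delta and 1 of 3 tested pancreatic polypeptide cell markers were lower in LPS. Neuron and Schwann cell markers, led by Snap25 and Tubb3, which endocrine cells also express, summed to 273 to 316 and 255 to 301 CPM. Ductal markers, led by Krt7 and Krt18, summed to 851 to 1035 and 1017 to 1205 CPM, with 2 of 7 tested higher in LPS. Acinar markers, led by Ctrb1 and Prss2, summed to 218 to 414 and 127 to 563 CPM, with 0 of 6 tested called. Macrophage markers, led by Cd68 and C1qa, summed to 31.1 to 45.4 and 41.1 to 52.8 CPM. Of the 3 tested, Cd68 and Cd14 were higher in LPS, the other 5 had too few counts, and the leukocyte marker Ptprc had 0 counts. Mesenchymal markers, led by Col1a1 and Col3a1, summed to 6.00 to 95.4 and 4.30 to 28.5 CPM, with 0 of 6 tested called. Endothelial markers, led by Kdr and Flt1, summed to 2.68 CPM in untreated 1, 14.7 to 24.5 CPM in the other untreated libraries and 2.29 to 5.71 CPM in LPS libraries, with 1 of 5 tested lower in LPS. Which cells the channel RNA came from was not tested.

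Levels of different genes were set side by side as CPM per kilobase of the longest annotated transcript, as means over all 10 libraries. Cacna1a had the highest level, 50.6 CPM per kb. The L-type genes followed, with Cacna1d at 26.3 and Cacna1c at 20.8 CPM per kb. Scn9a was the leading sodium channel gene, at 13.6 CPM per kb. The remaining genes lay well below these. Scn8a stood at 4.42, Cacna1h at 3.72, Scn3a at 2.91 and Cacna1g at 2.09 CPM per kb. Cacna1e came last, at 0.0746 CPM per kb. Its counts were 13 to 35 per library, so its level is the least precise of the 9.

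Not every step in this order exceeded the spread over libraries. Neighbours whose ranges over the 10 libraries overlapped were Cacna1d and Cacna1c, Scn8a and Cacna1h, Cacna1h and Scn3a, and Scn3a and Cacna1g. Within a library, Cacna1d was above Cacna1c and Cacna1h above Scn3a in 10 of 10 libraries, and Scn8a above Cacna1h and Scn3a above Cacna1g in 9 of 10. The gaps below Cacna1a, below Cacna1c, below Scn9a and below Cacna1g were free of overlap. Scaled by coding length, Cacna1c stood at 41.0 and Cacna1d at 38.9 CPM per kb, so the order of the L-type pair depends on the length used. The same choice put Scn3a, at 4.76, above Cacna1h, at 4.33 CPM per kb.

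Pore genes outside the 9 show how far the list covers the class. Nalcn, which encodes a sodium leak channel that needs no voltage change to open, stood at 7.15 CPM per kb, between Scn9a and Scn8a. Cacna1b, the N-type pore, stood at 3.67 CPM per kb, level with Cacna1h. The T-type gene Cacna1i stood at 1.14 and Scn11a at 0.471 CPM per kb. Scn2a, Cacna1f and Scn4a had means between 0.136 and 0.179 CPM per kb of transcript, above Cacna1e. Scn7a, Scn1a, Cacna1s and Scn10a were at or below 0.0292 CPM per kb and had no counts in at least 1 library each. On chromosome 2, Scn9a thus stood at 13.6 and its direct neighbours Scn1a and Scn7a at 0.0093 and 0.0292 CPM per kb.

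**Figure D1:**
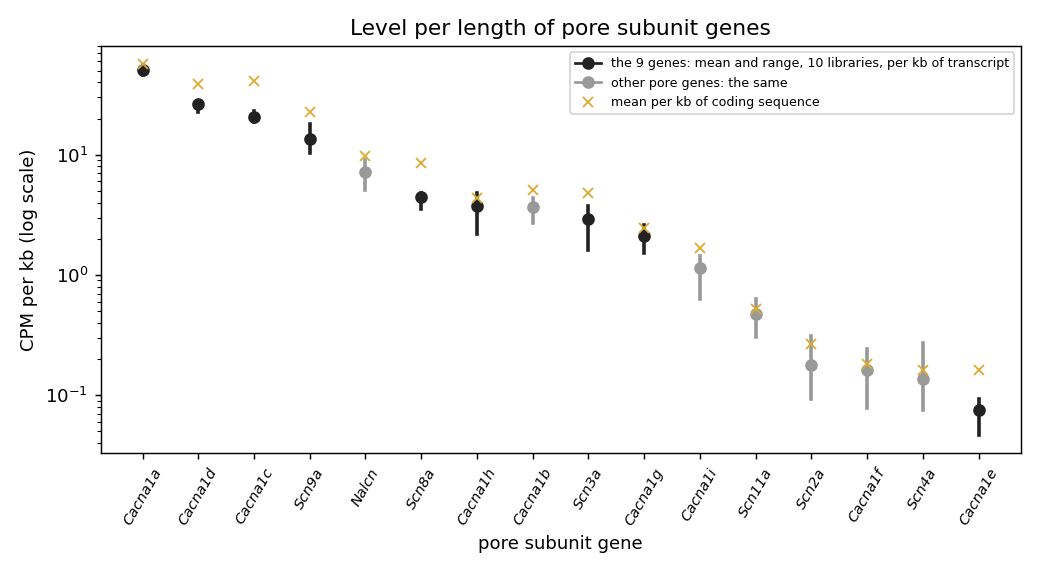
Level of pore subunit genes in CPM per kilobase on a log axis; circles and lines give the mean and range over the 10 libraries per kb of transcript (black for the 9 channel genes, grey for other pore genes), and crosses the mean per kb of coding sequence. Cacna1a stands highest at 50.6 and Cacna1e lowest among the 9 at 0.0746 CPM per kb, and genes without counts in some library are left out.

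Next, the groups were compared. None of the 9 channel genes was called between LPS and untreated libraries by edgeR's quasi-likelihood test at an adjusted p under 0.05, beside 3.77% of all genes tested (2.84% higher and 0.928% lower in LPS). DESeq2 and limma-voom also called 0 of 9. At an unadjusted p under 0.05 there was 1 of 9, Cacna1c, beside 15.3% of all genes. In none of the 9 were the groups free of overlap, which held for 5.71% of all genes. The estimates were below 0 for 6 of 9, against 52.1% of all genes, and their median was −0.04 on the log2 scale, against −0.01 over all genes. Across the 9 genes the 95% intervals of this fit ran from 0.531-fold to 1.34-fold of the untreated level. Each interval is for a single gene, and they do not hold jointly for all 9.

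Cacna1c, the gene of the L-type pore Cav1.2, came closest to a call. Its levels were 265, 253, 265, 264 and 249 CPM in untreated 1 to 5 and 303, 298, 289.7, 292 and 257 CPM in LPS 6 to 10. LPS 6 to 9 were above every untreated library, and LPS 10 lay within the untreated range. The means were 259 ± 7.70 and 288 ± 18.1 CPM (SD, n = 5 each). The log2 fold change was 0.15 (SE 0.0594; adjusted p = 0.221 by edgeR's quasi-likelihood test), with an interval of 1.02-fold to 1.21-fold. Without LPS 10 the estimate was 0.19 and the adjusted p 0.0778.

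Cacna1d, the gene of the other L-type pore, was level between the groups. It had 246, 266, 273, 256 and 249 CPM in untreated 1 to 5 and 244, 263, 267, 258 and 219 CPM in LPS 6 to 10. LPS 10 was the lowest of all libraries and the rest overlapped. The means were 258 ± 11.3 and 250.1 ± 19.7 CPM (SD, n = 5 each), with a log2 fold change of −0.04 (SE 0.0660; adjusted p = 0.823, edgeR) and an interval of 0.879-fold to 1.07-fold. Without LPS 10 the estimate was 0.00.

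Cacna1a, the P/Q-type gene, had 364, 362, 392, 371 and 437 CPM in untreated 1 to 5 and 397, 421, 437, 442 and 387 CPM in LPS 6 to 10. Untreated 5 was level with LPS 8 and higher than LPS 6, LPS 7 and LPS 10, so the groups overlapped. The means were 385 ± 31.2 and 417 ± 24.2 CPM (SD, n = 5 each), with a log2 fold change of 0.11 (SE 0.0691; adjusted p = 0.498, edgeR) and an interval of 0.975-fold to 1.20-fold.

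Cacna1e, the R-type gene, had the lowest estimate of the 9. It had 1.32, 1.38, 1.39, 1.29 and 1.03 CPM in untreated 1 to 5 and 0.976, 1.27, 0.950, 0.699 and 0.829 CPM in LPS 6 to 10. Untreated 5 and LPS 7 stood apart from their own groups and produced the overlap. These levels rest on 156 counts in all untreated and 108 in all LPS libraries. The means were 1.28 ± 0.149 and 0.944 ± 0.211 CPM (SD, n = 5 each). The log2 fold change was −0.43 (SE 0.224; adjusted p = 0.397, edgeR), and the interval, 0.531-fold to 1.04-fold, was the widest on the low side.

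The T-type genes varied more within the LPS group than between the groups. Cacna1h had 29.0, 32.1, 35.3, 36.2 and 29.8 CPM in untreated 1 to 5 and 20.6, 32.5, 39.4, 33.5 and 18.2 CPM in LPS 6 to 10. LPS 6 and LPS 10 lay below all other libraries and LPS 8 above all. Its coefficient of variation was 9.89% in untreated and 31.5% in LPS libraries. The means were 32.5 ± 3.21 and 28.8 ± 9.07 CPM (SD, n = 5 each), with a log2 fold change of −0.17 (SE 0.180; adjusted p = 0.732, edgeR). With LPS 6 and LPS 10 left out together the estimate turned to 0.11. Cacna1g ran from 15.9 to 20.8 CPM in untreated and from 12.8 to 21.8 CPM in LPS libraries, and LPS 6 and LPS 10 were again the lowest. Its log2 fold change was −0.04 (SE 0.137; adjusted p = 0.936, edgeR), and 0.15 without those libraries.

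Among the sodium channel genes, Scn9a had 129, 132, 132, 139 and 102 CPM in untreated 1 to 5 and 154, 176, 139.5, 133 and 101 CPM in LPS 6 to 10. LPS 6 and LPS 7 were the highest, while untreated 5 and LPS 10 were lowest and nearly equal. The means were 127 ± 14.4 and 141 ± 27.6 CPM (SD, n = 5 each), with a log2 fold change of 0.15 (SE 0.127; adjusted p = 0.649, edgeR). The estimate was 0.05 without LPS 7, 0.08 without untreated 5 and 0.25 without LPS 10. Scn3a had 28.1, 31.5, 36.2, 28.7 and 27.6 CPM in untreated 1 to 5 and 21.8, 29.5, 32.7, 26.6 and 15.5 CPM in LPS 6 to 10. As for the T-type genes, LPS 6 and LPS 10 were the lowest libraries. Its means were 30.4 ± 3.54 and 25.2 ± 6.75 CPM (SD, n = 5 each), and its log2 fold change was −0.27 (SE 0.163; adjusted p = 0.484, edgeR), but −0.04 with LPS 6 and LPS 10 left out. Scn8a ran from 40.5 to 55.4 CPM in untreated and from 44.6 to 54.4 CPM in LPS libraries, the narrower range inside the wider. Its log2 fold change was −0.03 (SE 0.0887; adjusted p = 0.935, edgeR).

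**Figure D2:**
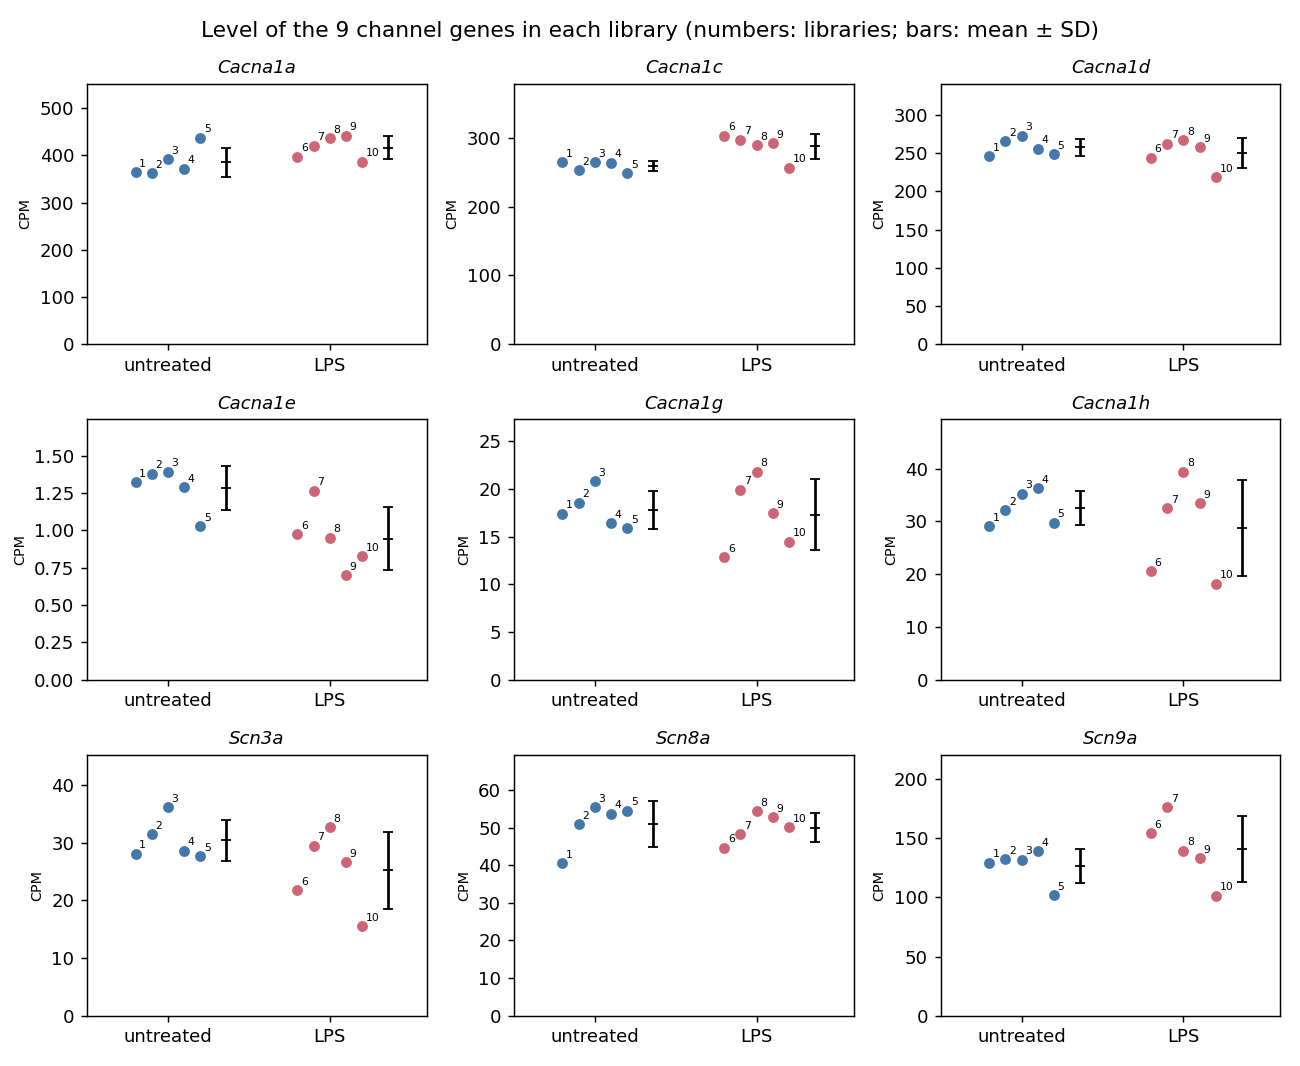
CPM of each of the 9 channel genes in every library, with an own axis from 0 for each gene; numbers are library numbers, and black bars are mean ± SD (n = 5 each). The groups overlap for all 9 genes, and LPS 6 and LPS 10 are the 2 lowest libraries for Cacna1g, Cacna1h and Scn3a.

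The balance within the L-type pair is given as a description. Cacna1c made up 44.1, 41.1, 41.6, 43.1 and 42.3% of the summed level per kb of Cacna1c and Cacna1d in untreated 1 to 5, and 47.7, 45.4, 44.3, 45.4 and 46.3% in LPS 6 to 10. Every LPS library, LPS 10 included, was above every untreated library. The means were 42.4 ± 1.20% and 45.8 ± 1.27% (SD, n = 5 each). The difference in share was not tested. With coding length it was 49.6% and 53.1%, which moves both groups by a like amount. Over all 36 ratios that the 9 genes allow, 2 had groups that did not overlap, or 5.56%, beside 5.71% of single genes. A ratio is another measure than a single gene, and the share among ratios of other genes was not computed. Besides the L-type pair, the separated ratio was Cacna1e to Scn9a. Its log2 value was 0.60 lower in LPS, and it rests on the low counts of Cacna1e. These ratios share genes and libraries and are not independent.

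Scn9a made up most of the 3 sodium channel genes in every library. Its share was 57.5 to 67.0% in untreated and 63.2 to 71.7% in LPS libraries, with means of 62.7 ± 3.65% and 66.8 ± 4.22% (SD, n = 5 each). Scn8a, the gene of a channel best known from axons, held 21.8 ± 3.02% and 21.0 ± 4.00%. Scn3a held 15.5 ± 1.27% and 12.2 ± 2.18%, with LPS 8 inside the untreated range. The groups overlapped for all 3 shares.

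**Figure D3:**
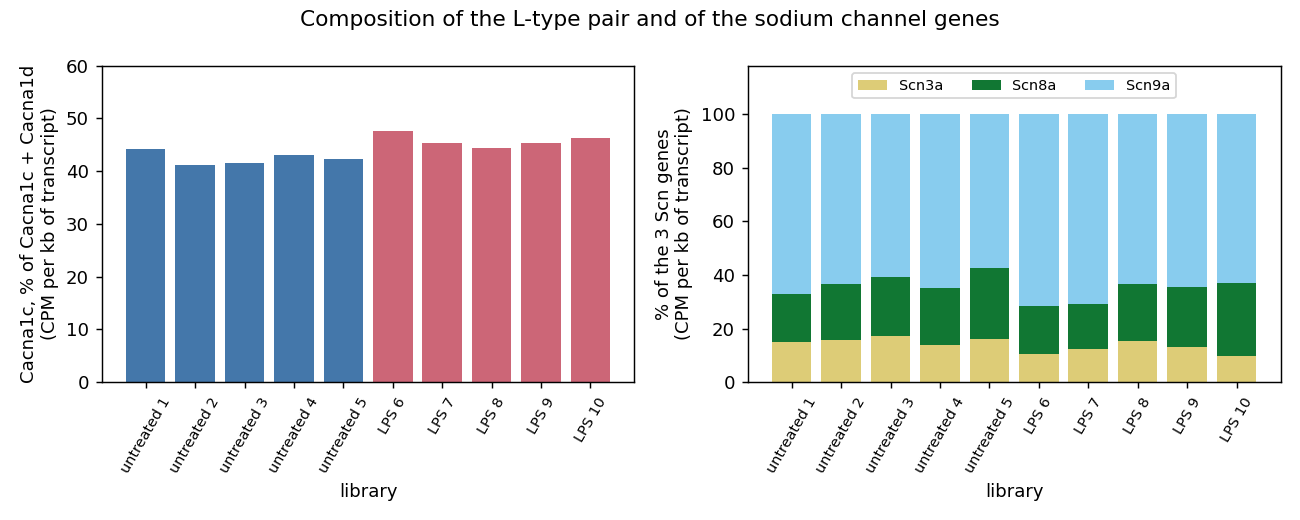
Left, share of Cacna1c in the summed level per kb of Cacna1c and Cacna1d in each library (blue untreated, red LPS); right, shares of Scn3a, Scn8a and Scn9a in their sum. The share of Cacna1c is 41.1 to 44.1% in untreated and 44.3 to 47.7% in LPS libraries, and Scn9a is the largest part of the sodium channel genes in all 10.

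The partners of the channels were examined through 5 lists with 64 tested genes in all. The edgeR quasi-likelihood test called 0 of 64, beside 3.77% of all genes tested, and the smallest adjusted p was 0.0590, for Unc79. Other settings called up to 4 of the 64. Over all genes tested, 15.3% had an unadjusted p under 0.05 and 5.71% had groups that did not overlap. Estimates were below 0 for 52.1% of all genes, and their median was −0.01. Of the other pore genes, 7 of 12 were tested and 0 called, with 3 at an unadjusted p under 0.05, 4 estimates below 0 and a median log2 fold change of −0.12. The most abundant were Nalcn, at 57.2 ± 7.18 CPM in untreated and 44.6 ± 6.15 in LPS libraries (adjusted p = 0.0966, edgeR), and Cacna1b, at 39.2 ± 3.26 and 32.3 ± 4.11 CPM (adjusted p = 0.140; SD, n = 5 each).

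Calcium channel auxiliary subunits carry the pore to the membrane and set its gating. Of 17, 12 were tested and 0 called, 0 at an unadjusted p under 0.05, with 8 estimates below 0 and a median of −0.10. Cacna2d1, which encodes the extracellular alpha-2-delta subunit, had 248 ± 16.5 CPM in untreated and 231 ± 24.9 CPM in LPS libraries (log2 fold change −0.11; adjusted p = 0.597, edgeR). Cacnb3, which encodes a cytoplasmic beta subunit, had 117 ± 8.96 and 119 ± 7.79 CPM (0.02; adjusted p = 0.923, edgeR). Cacnb2, another beta subunit, was named after its values were seen and had 50.5 ± 3.42 and 47.5 ± 4.20 CPM.

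Of the sodium channel auxiliary subunits and partners, 11 of 14 listed names were tested, since 1 name is an older or newer symbol of another listed gene and 2 genes had too few counts. None of the 11 was called, 2 had an unadjusted p under 0.05, and 10 of the 11 estimates were below 0, with a median of −0.26. Unc80 and Unc79, large proteins of the Nalcn channel complex, led this list by abundance. Unc79 had 90.1 ± 6.55 CPM in untreated and 75.2 ± 5.55 CPM in LPS libraries, and its groups did not overlap (log2 fold change −0.26; adjusted p = 0.0590, edgeR). Unc80 had 472 ± 57.8 and 394 ± 76.1 CPM (−0.26; adjusted p = 0.382, edgeR). Fgf12, an intracellular protein that binds the tail of sodium channels, was named after its values were seen. It had 15.8 ± 1.73 and 12.2 ± 1.24 CPM (−0.37; adjusted p = 0.0638, edgeR).

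Of the calcium channel regulators, 16 of 20 were tested and 0 called, 1 with an unadjusted p under 0.05, with 9 estimates below 0 and a median of −0.06. Rimbp2, which ties calcium channels to release sites, had 418 ± 34.7 and 393 ± 31.7 CPM (−0.09; adjusted p = 0.645, edgeR). Cabp1, a calcium sensor of L-type channels, was named after its values were seen and had 53.3 ± 12.1 and 72.2 ± 11.7 CPM (0.44; adjusted p = 0.144, edgeR).

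Genes induced by depolarisation and calcium entry were also listed. The cells were dispersed and sorted after culture. Channel activity was not measured, and whether the levels of these genes follow it here was not tested. All 18 were tested, 0 were called and 1, Nr4a2, had an unadjusted p under 0.05, with 10 estimates below 0 and a median of −0.07. Fosb had 2140 ± 197 CPM in untreated and 2287 ± 168 CPM in LPS libraries (0.10; adjusted p = 0.645, edgeR). Fos had 1602 ± 59.3 and 1443 ± 231 CPM (−0.15; adjusted p = 0.541, edgeR).

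**Figure D4:**
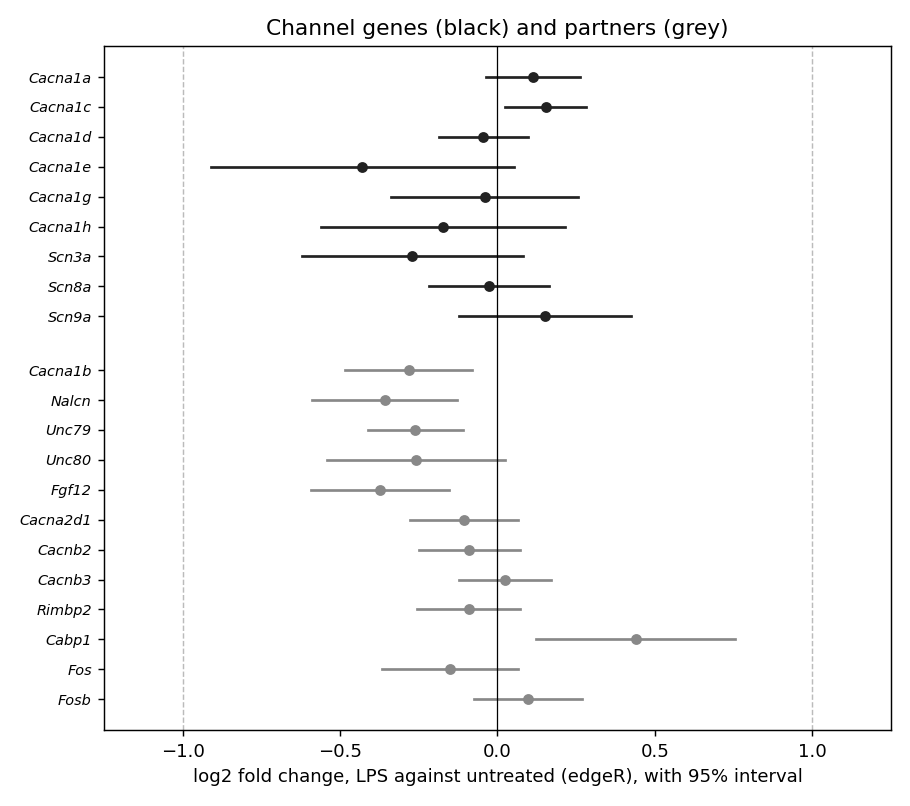
Log2 fold change of LPS against untreated by edgeR with its 95% interval, for the 9 channel genes (black) and 12 partner genes (grey); dashed lines mark −1 and 1. Estimates of the 9 run from −0.43 for Cacna1e to 0.15 for Cacna1c and Scn9a, and no interval of the 9 reaches a dashed line.

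Some of the 9 genes moved together from library to library. Of 36 pairs, 7 had a Pearson correlation of log2 CPM over the 10 libraries with an adjusted permutation p under 0.05, and 3 also by Spearman's rho. The lowest r of these 7 was 0.768, and r was at least that large in size for 19.4% of the 36 pairs. It was so for 5.91% of all pairs among 11994 genes with a symbol and a mean of at least 1 CPM. This set left out predicted genes, pseudogenes and mitochondrially encoded genes. That cut was taken from the called pairs themselves, so these shares are no test of an excess. Apart from Cacna1c with Scn9a, the called pairs all lie among Cacna1d, Cacna1g, Cacna1h and Scn3a, and pairs that share genes are not independent. Libraries share normalisation and total counts, which enter every value. The highest was Cacna1d with Scn3a, with r = 0.955 (n = 10, permutation p = 5e-05, adjusted 0.00180) and rho = 0.915 (permutation p = 0.00048, adjusted 0.00864). Without LPS 6 and LPS 10, the libraries farthest from the median of Scn3a, r was 0.829 (permutation p = 0.0108). With the group means removed it was 0.976. Cacna1d with Cacna1g had r = 0.772 (permutation p = 0.00694, adjusted 0.0357) and rho = 0.927 (permutation p = 0.00030, adjusted 0.00864), and r was 0.868 without LPS 6 and LPS 8. Cacna1g with Scn3a had r = 0.790 (permutation p = 0.00467, adjusted 0.0298) and rho = 0.879 (permutation p = 0.00133, adjusted 0.0160), and r was 0.787 without LPS 6 and LPS 10.

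Cacna1h also moved with this group, less closely without LPS 6 and LPS 10. Its r was 0.907 with Scn3a, 0.882 with Cacna1d and 0.824 with Cacna1g, with adjusted permutation p of 0.0107, 0.00756 and 0.0233. Without those libraries it was 0.515, 0.689 and 0.585, with unadjusted permutation p of 0.194, 0.0608 and 0.129. Leaving out the lowest libraries also narrows the range and leaves fewer values, so how far these relations rest on them is not settled. Spearman's rho for the same pairs was 0.733, 0.806 and 0.745, with adjusted permutation p of 0.103, 0.0646 and 0.103.

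The summed level of delta cell markers, mainly Sst, moved with the same genes. It was 5700.1 CPM in LPS 6 and 5014 CPM in LPS 10, below all other libraries. Its r over 10 libraries was 0.889 with Cacna1h, 0.869 with Scn3a, 0.862 with Cacna1g and 0.819 with Cacna1d. The adjusted permutation p were 0.00756, 0.00778, 0.00792 and 0.0168, in a family of 36 relations with 4 marker sums. An r of at least 0.819 in size with this sum, a cut set by the value of Cacna1d, was found in 1.48% of the 11994 genes. Without LPS 6 and LPS 10, r was 0.765 for Cacna1g (permutation p = 0.0199) and 0.565, 0.522 and 0.452 for Cacna1h, Scn3a and Cacna1d (permutation p = 0.137, 0.189 and 0.263). Spearman's rho was 0.661, 0.709, 0.818 and 0.648 in the order Cacna1h, Scn3a, Cacna1g and Cacna1d, with adjusted permutation p of 0.195, 0.137, 0.0528 and 0.195. Scn3a also moved with the markers of pancreatic polypeptide cells, with r = 0.841 (permutation p = 0.00040, adjusted 0.00600), rho = 0.782 (permutation p = 0.0101, adjusted 0.0730) and r = 0.693 without untreated 3 and LPS 10 (permutation p = 0.0409). The part of these cells in the channel levels was not tested. In such bulk samples fewer cells of a type and less RNA per cell cannot be told apart.

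Cacna1c and Scn9a formed another pair, with r = 0.768 (n = 10, permutation p = 0.00497, adjusted 0.0298) and rho = 0.770 (permutation p = 0.0122, adjusted 0.0876). Without LPS 7 and LPS 10 r was 0.721 (permutation p = 0.0198). Both were low where the summed beta cell markers, mainly Ins2 and Ins1, were high. Cacna1c had r = −0.897 with that sum (permutation p = 0.00050, adjusted 0.00600) and rho = −0.903 (permutation p = 0.00089, adjusted 0.0320). Scn9a had r = −0.908 (permutation p = 0.00028, adjusted 0.00600) and rho = −0.818 (permutation p = 0.00587, adjusted 0.0528). Without untreated 5 and LPS 7, r was −0.846 for Cacna1c and −0.806 for Scn9a (permutation p = 0.00545 and 0.0103). An r of at least 0.897 in size with the beta cell sum, a cut set by the value of Cacna1c, was found in 0.325% of the 11994 genes. The sum was highest in untreated 5, at 137261 CPM, and in LPS 10, at 134229 CPM, the libraries in which Cacna1c and Scn9a were lowest within their groups. The part of this sum in the levels of Cacna1c and Scn9a was not tested.

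**Figure D5:**
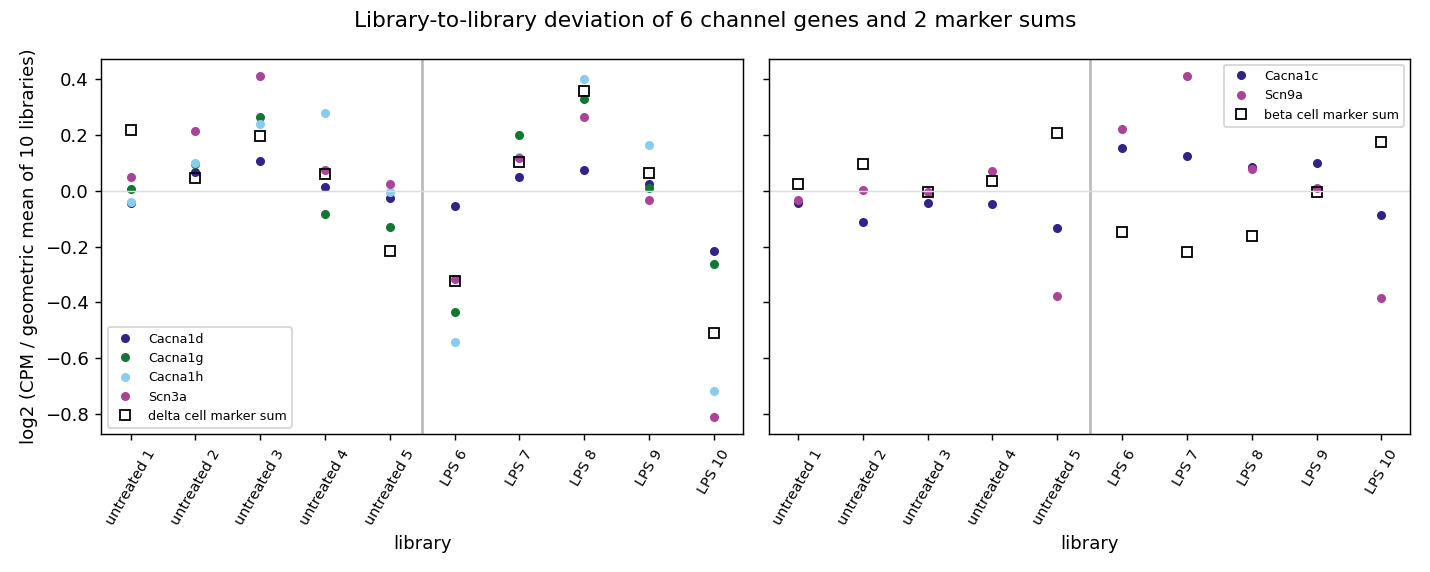
Deviation of each library from the geometric mean of the 10 libraries, in log2 units of CPM. Left, Cacna1d, Cacna1g, Cacna1h and Scn3a with the delta cell marker sum (squares), all low in LPS 10; right, Cacna1c and Scn9a with the beta cell marker sum (squares), which is high in untreated 5 and LPS 10 where both genes are low.

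Genes whose level moved most like a channel gene were listed for 2 of the 9. Likeness was Pearson's r of log2 CPM over the 10 libraries. They were taken from 11993 genes with a symbol and a mean of at least 1 CPM, with the same kinds of gene left out. For Cacna1a, which had the highest level, they were Phldb3 (r = 0.931), Alyref (0.889) and Map3k10 (0.862). For Cacna1c, which had the smallest p, they were Map3k1 (0.962), Itgb8 (0.939) and Plxnb2 (0.928). Of these 6 only Plxnb2 was called between the groups, with a log2 fold change of 0.32 and an adjusted p of 0.0149 by edgeR's quasi-likelihood test. These are the highest of many correlations and carry no p.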

How the data were processed

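RNA-seq counts of sorted NOD beta cells were analysed in 5 untreated and 5 LPS libraries, grouped by their titles. The authors deposited raw counts per Ensembl gene, 1 table per library, and made them with FastQC, Trimmomatic, STAR, SAMtools, HTSeq and build GRCm39, with DESeq2 also named, per the submitters' processing notes. The sources used here give no versions, annotation release, library kit or use of strand. Rows that name no gene were left out: reads outside genes made up 8.84 to 12.9%, ambiguous reads 1.40 to 1.61% and reads with several places 4.89 to 6.10% of a table. Reads with several places are not counted to a gene, which lowers the counts of genes that share sequence.

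For the test, edgeR 4.0.16 in R 4.3.3 kept genes by filterByExpr with a minimum count of 10 and a total of at least 15. TMM set the scale and the quasi-likelihood F test compared the groups, without covariates. Benjamini-Hochberg adjustment ran over 15942 genes, and calls needed an adjusted p below 0.05. The script was tested on simulated data. CPM are counts in every 1000000 of a TMM-scaled library. Lengths and coding sequences come from GENCODE M21 (GRCm38), another build than the counts, so no coordinates are given. Each library counted as 1 replicate because the labels call the samples independent. Libraries of a group differed beyond sampling noise in every pair (chi-square per gene at least 6.14), which does not show that their animals were separate. P-values measure the spread between these libraries, which are not tied to named animals. Correlations used 100000 permutations. Repeats with libraries left out dropped those farthest from the median of a single measure, either a gene of the pair or the marker sum. Confidence intervals have a level of 95%. Alternatives used DESeq2 1.42.0, limma 3.58.1 and sva 3.50.0, other scalings and filters, and fewer libraries. Python 3.11.15 with pandas 2.3.3 served for sequences and, with matplotlib 3.10.9, for plots.

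The 9 genes, the lists, the rule and the tests were chosen with earlier results of these data known. All 9 were named, and of each list the called members or else the 2 most abundant. The 3 genes most alike were named for the member with the highest level and the one with the smallest p. Other genes named are marked. Some genes that the rule picks or the lists hold stayed in all fits and counts and are not reported here.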

Additional observations from a re-analysis of the deposited data

Results flagged for a closer look

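For 2 of the 9 genes 1 library stood apart from its group by Dixon's criterion, and in both it was untreated 5. Chance meets this criterion in about 1 of 20 groups. All 9 genes were screened in both groups, so such a library can turn up by chance. The share over all genes is not given. For Scn9a untreated 5 had 102 CPM, and the nearest untreated library 129 CPM, so the gap made up 0.739 of the range of the 5 libraries. For Cacna1e untreated 5 had 1.03 CPM and the nearest untreated library 1.29 CPM, a gap of 0.719 of the range. That gap rests on 25 counts in untreated 5 and 30 to 34 in the other untreated libraries. Within the untreated group Cacna1e and Scn9a had r = 0.917, so the findings for these genes are not independent. Untreated 5 also had the highest beta cell marker sum of the 10 libraries (137261 CPM) and the lowest alpha and delta cell marker sums of the untreated group (5388 and 6141 CPM). The part of these sums in both values was not tested.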

How the results depend on the processing

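No alternative called any of the 9 channel genes. The lowest adjusted p was 0.0516, for Cacna1c with 1 surrogate variable in edgeR. Of 455 values for 24 named genes under up to 19 settings, 426 kept direction and call, 17 gained a call, 0 lost one and 12 reversed. Cacna1d turned to 0.00070 without LPS 10 (range without 1 library −0.0766 to 0.00070). Cacna1g turned to 0.0191 without untreated 3, 0.0404 without LPS 6 and 0.0182 without LPS 10 (range −0.145 to 0.0404), and Scn8a to 0.00456 without untreated 3 and 0.00395 without LPS 6 (range −0.0995 to 0.00456). Cacnb3 turned to −0.00324 without untreated 2 and −0.0101 without LPS 8 (range −0.0101 to 0.0694). With LPS 6 and LPS 10 left out together, chosen after seeing the data, Cacna1d was 0.0265, Cacna1g 0.149, Cacna1h 0.113 and Scn8a 0.0226. All these are log2 fold changes; the cause was not tested.

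Over all genes 601 were called (453 higher, 148 lower), against 938 with DESeq2 (650 and 288), 994 with limma-voom and sample quality weights (693 and 301), 1287 with a surrogate variable (833 and 454), 379 without LPS 6 and LPS 10 (309 and 70), and 401 to 624 without 1 library. Of the 64 list genes 0 were called, against 1 with a filter at 1 CPM in 5 libraries, 3 with DESeq2, 4 with sample quality weights, 4 with a surrogate variable, and 0 to 4 without 1 library (4 without untreated 5, 1 without LPS 6). Coding length in place of transcript length gave 56.4 CPM per kb for Cacna1a, 38.9 for Cacna1d, 41.0 for Cacna1c, 22.5 for Scn9a, 8.47 for Scn8a, 4.76 for Scn3a, 2.46 for Cacna1g and 0.163 for Cacna1e, and a share of 51.3% for Cacna1c over all libraries. This length and leaving libraries out of the count totals were added after seeing the data. LPS minus untreated assigned counts ran from −3343821 to −1115145 without 1 library. No paired analysis was made, because the groups share no replicate number and the labels name no pairs. A fit blocked by title order was not run. The surrogate variable ran in the order of the titles in both groups, from −0.44 to 0.42 in untreated 1 to 5 and from −0.58 to 0.49 in LPS 6 to 10. The labels do not say what this order stands for, and its part in the results was not tested beyond the fit with that variable. Depth limits Cacna1e most, with 13 to 35 counts per library.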

Other observations

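Among the listed partners, the smallest adjusted p belonged to Unc79 and Fgf12, and Nalcn was also below 0.10. Nalcn, the leak channel pore, had a log2 fold change of −0.36 and an adjusted p of 0.0966 by edgeR's quasi-likelihood test, and Unc79, a protein of its complex, −0.26 and 0.0590. Fgf12, which binds sodium channels, had −0.37 and 0.0638. All 3 were called lower in LPS by DESeq2 (adjusted p = 0.0474 for Nalcn, 0.0220 for Unc79 and 0.0216 for Fgf12) and with 1 surrogate variable in edgeR (0.0465, 0.0226 and 0.0269). Sample quality weights in limma-voom also called them (0.0281, 0.0282 and 0.0406), as did the edgeR fit without untreated 5 (0.0346, 0.0495 and 0.0284), and a filter at 1 CPM called Unc79 (0.0453). With LPS 6 and LPS 10 left out together the estimates were −0.22, −0.19 and −0.29. Their adjusted p were 0.386, 0.260 and 0.299 by edgeR. Limma-voom without weights, both other scalings and the fit without a low-count filter called 0 of the 64 list genes. So did each fit without untreated 1, 2, 3 or 4, or without LPS 7, 8, 9 or 10. Over all genes DESeq2 called 938 of 19603, sample quality weights 994 of 15942 and the surrogate variable 1287 of 15942. The fit without untreated 5 called 609 of 16116, beside 601 of 15942 in the main fit. The rest of the channel complex was further from the threshold: Unc80 had −0.26 with an adjusted p of 0.382, and Fam155a, its other listed subunit, −0.04 with 0.894 (edgeR).

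Cabp1, a calcium sensor of L-type channels, had a log2 fold change of 0.44 with an adjusted p of 0.144 by edgeR. It was called higher in LPS with sample quality weights in limma-voom (adjusted p = 0.0158), with 1 surrogate variable in edgeR (0.000620) and without untreated 5 (0.0232), but not with DESeq2 (0.0682). Nr4a2, a transcription factor gene induced by depolarisation, had −0.60 with an adjusted p of 0.325, and −0.93 with an adjusted p of 0.0333 by edgeR without LPS 6. Scn4a, a sodium channel gene best known from skeletal muscle, had 0.629 ± 0.180 CPM in untreated and 1.17 ± 0.383 CPM in LPS libraries (SD, n = 5 each), with a log2 fold change of 0.87 and an adjusted p of 0.143 by edgeR, on 77 and 128 counts. These genes were chosen after their values were seen.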
